A study of Mus musculus with 10 samples.

Results

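Small leucine-rich proteoglycans are secreted proteins whose leucine-rich repeats bind collagen fibrils, and periostin is a matrix protein that joins collagen to other matrix proteins and to integrins. The 8 genes described here are decorin (Dcn), biglycan (Bgn), asporin (Aspn), fibromodulin (Fmod), lumican (Lum), prolargin (Prelp), osteoglycin (Ogn) and periostin (Postn), out of 23370 gene symbols in the deposited table. They were taken by symbol, with the RefSeq transcript of highest mean level for each. Fmod, Aspn and Postn were named because their levels part the pretreated 1 h and 4 h libraries from the other libraries of that arm. The other 5 were named because they belong to the same gene family as Fmod and Aspn. Of the 8 genes 7 reached 1 RPKM (a level per transcript length and per library depth) in at least 2 libraries and entered the tests, with 12168 genes in all. Lum did not.

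The libraries were made from total RNA of mouse embryonic fibroblasts (MEFs), which are connective tissue cells grown out of embryos. All came from the C57BL/6 strain and carried the H3.3b-HA knock-in, in which a tagged histone H3.3 cDNA takes the place of H3f3b, so that the controls share this allele. Naive and pretreated cells form the arms of the study, and each arm has 1 library at 0, 1, 2, 4 and 6 h. Treatment is given for all samples as interferon-beta (IFN-β), an antiviral cytokine, at 100 U per ml. Hours are taken here as counted from the addition of IFN-β. The sources used here do not give the dose or duration of the pretreatment. No library was labelled as unstimulated at 1 to 6 h, so that effects of IFN-β and of time in culture cannot be told apart. Neither do they give the age, sex or number of the embryos.

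Fibroblasts secrete most of these proteins. Dcn, Bgn and Aspn form class I of the family, Fmod, Lum and Prelp belong to class II, and Ogn to class III. Decorin and biglycan carry chondroitin or dermatan sulfate chains, and fibromodulin and lumican can carry keratan sulfate. Decorin, fibromodulin and lumican regulate how wide collagen fibrils grow, and decorin and biglycan also bind transforming growth factor beta (TGF-β). Periostin is known as a target of TGF-β in fibroblasts.

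Summed over the transcript kept for each gene, libraries held between 83.9 and 268 M counts (M, mega), and the 4 h and 6 h libraries of each arm were the deepest. Shares of counts below, and the scaling of Lum to library size, use these sums. As a check of the arm labels, the interferon-induced gene Ifit3 stood at 1.38 RPKM in the naive 0 h library and at 167 RPKM in the pretreated one. Within the pretreated arm the 1 h and 4 h libraries stood apart from those of 0, 2 and 6 h. In 1095 of the 12168 genes (9.00%) both lay above all of the other 3, and in 1254 (10.3%) both lay below them. In the naive arm the same hours were apart in either direction in 7.31% of the genes, against 19.3% in the pretreated arm. The 8 fibroblast markers had a summed level of 8439 to 10518 RPKM in naive libraries, 8535 to 9628 in pretreated 1 and 4 h and 7270 to 8153 in pretreated 0, 2 and 6 h. The most abundant of them weigh most in this sum: the median marker differed by -0.14 on the log2 scale between pretreated 1 and 4 h and 0, 2 and 6 h, with 2 of 8 parting these libraries upward and 1 downward. Of 6 macrophage markers 5, of 5 endothelial markers 3 and of 5 epithelial markers 3 were below 1 RPKM in every library. Marker sums of fat (4 genes) were 4.12 to 5.64 RPKM in pretreated 1 and 4 h and 7.08 to 9.64 RPKM in pretreated 0, 2 and 6 h, and those of cartilage (5 genes) 17.4 to 18.4 and 20.6 to 35.5 RPKM. In the same order the sums were 2.73 to 2.76 and 3.61 to 4.11 RPKM for macrophage, 26.1 to 31.5 and 33.3 to 36.2 RPKM for tendon (4 genes), and, the other way, at least 10.1 and at most 9.39 RPKM for skeletal muscle (5 genes). Sums of the endothelial, epithelial, neural and bone lists overlapped between these libraries. Adipoq, Plin1, Acan, Col9a1 and Comp were below 1 RPKM throughout. The part of these markers in the results below was not tested. The share of the ribosomal precursor Rn45s, 3.90% and 2.85% of the counts at pretreated 0 h and 1 h and at most 1.51% elsewhere, did not follow the split.

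Several of the genes lie next to each other, in mm10 coordinates of the table. On chromosome 13, Aspn (49544443 to 49567562, plus strand, 8 exons) and Ogn (49608071 to 49624500, plus strand, 7 exons) have Omd, the osteomodulin gene, between them, and Ecm2, another leucine-rich matrix protein gene, on the far side of Aspn. This block lies within the span of Cenpp, a centromere protein gene on the minus strand (49464059 to 49652731). Cenpp stood between 3.74 and 11.7 RPKM, and reads from the opposite strand could not be separated, because the sources used here do not say whether counting used strand. On chromosome 1, Prelp (133910304 to 133921401, minus strand, 3 exons) and Fmod (134037515 to 134048277, plus strand, 3 exons) are neighbours 116 kb apart, with the opticin gene Optc beside Prelp. On chromosome 10, Dcn (97479500 to 97518162, plus strand, 8 exons) and Lum (97565501 to 97572703, plus strand, 3 exons) are 47.3 kb apart. Of the 8 genes only Bgn lies on chromosome X (73483635 to 73495936, plus strand, 8 exons), and only Postn on chromosome 3 (54361107 to 54391041, plus strand, 21 exons).

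The 250 bases before the start of 4 of the genes are printed from RefSeq (GRCm38.p6, the assembly that mm10 names), 5′ to 3′ on the strand of the gene: the 3 that were named for the split of the pretreated libraries, and Ogn, which rose most in naive cells. A window was found for 6 of the 8 genes. Capitals mark matches on either strand to the TATA box (TATAAA), the CCAAT box (CCAAT), a SMAD element (CAGAC) through which TGF-β acts, a TEAD element (GGAATG) and the core of the interferon-stimulated response element (GAAA, any 2 bases, GAAA).
Fmod, chr1:134037004-134037253, plus strand: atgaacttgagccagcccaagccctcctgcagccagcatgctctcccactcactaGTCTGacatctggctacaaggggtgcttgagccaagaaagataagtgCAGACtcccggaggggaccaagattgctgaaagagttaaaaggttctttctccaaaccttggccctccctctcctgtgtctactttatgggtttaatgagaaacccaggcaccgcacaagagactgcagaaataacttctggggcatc
Aspn, chr13:49544193-49544442, plus strand: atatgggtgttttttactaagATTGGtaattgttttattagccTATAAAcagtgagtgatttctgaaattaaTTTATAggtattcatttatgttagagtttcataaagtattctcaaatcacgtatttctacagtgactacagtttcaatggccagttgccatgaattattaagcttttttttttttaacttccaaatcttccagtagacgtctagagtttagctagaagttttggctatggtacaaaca
Postn, chr3:54360857-54361106, plus strand: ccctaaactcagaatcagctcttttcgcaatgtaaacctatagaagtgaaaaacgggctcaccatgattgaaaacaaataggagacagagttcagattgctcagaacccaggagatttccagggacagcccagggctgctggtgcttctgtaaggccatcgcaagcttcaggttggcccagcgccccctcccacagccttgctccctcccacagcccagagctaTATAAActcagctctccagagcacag
Ogn, chr13:49607765-49608014, plus strand: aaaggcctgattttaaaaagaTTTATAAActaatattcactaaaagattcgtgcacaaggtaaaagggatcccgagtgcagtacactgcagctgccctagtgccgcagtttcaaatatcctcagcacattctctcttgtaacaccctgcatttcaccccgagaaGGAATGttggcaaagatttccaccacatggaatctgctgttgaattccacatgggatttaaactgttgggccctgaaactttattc
The RefSeq start used for Fmod lies 261 bases before the start in the deposited table and that for Ogn 56 bases before it, while those of Aspn and Postn coincide. The Aspn and Ogn windows lie within the Cenpp span. Among the 3 named for the split, Postn held a TATA box 26 bases before its start, Aspn held TATAAA at 207 and 178 bases before its start and ATTGG, the reverse complement of CCAAT, at 229 bases, and Fmod held CAGAC on either strand. In the Ogn window 2 overlapping matches to TATAAA and 1 to GGAATG were found. These letters are common: of 32851 windows of the same length 12.4% held TATAAA, 33.8% CCAAT, 42.2% CAGAC and 12.6% GGAATG. The interferon element core was in 0 of the 6 windows and in 2.98% of all windows.

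Levels of the 8 genes spanned more than 4 orders of magnitude, and their order was nearly fixed. Bgn was the highest in all 10 libraries, with 1698 to 2852 RPKM, between 0.403% and 0.676% of the summed counts of a library. Postn (285 to 679 RPKM) and Ogn (229 to 735 RPKM) followed and exchanged places, with Ogn the higher one in naive 4 and 6 h and in pretreated 2, 4 and 6 h. Prelp (79.8 to 203 RPKM) and Aspn (53.9 to 191 RPKM) exchanged places as well. Dcn (45.3 to 108 RPKM) was the sixth and Fmod (3.34 to 29.4 RPKM) the seventh in every library. Postn and Ogn, and Prelp and Aspn, thus did not differ beyond their spread over the libraries.

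Lum was close to the limit of detection. It had 24, 2, 21, 42 and 86 counts at naive 0 to 6 h and 9, 3, 5, 97 and 25 counts at pretreated 0 to 6 h, and at most 0.195 RPKM. In CPM (counts scaled to library size) it stood at 0.254 in naive 0 h (exact 95% Poisson interval 0.163 to 0.378), at 0.0132 in naive 1 h (0.00160 to 0.0477), at 0.0696 in pretreated 0 h (0.0318 to 0.132) and at 0.402 in pretreated 4 h (0.326 to 0.490). A library of these depths allows 0.0112 to 0.0358 CPM at a count of 0 (3 counts). The intervals cover counting error only. Dcn, its neighbour, was at 45.3 RPKM or more in each library.

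In naive cells the genes did not move as a family. Ogn rose and Fmod fell over the 6 h, Aspn and Dcn were higher and Prelp and Bgn lower at 6 h than at 0 h without passing the edgeR test, and Postn stayed close to its starting level. In bulk RNA, fewer cells of a type and less RNA per cell cannot be told apart.

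**Figure D1:**
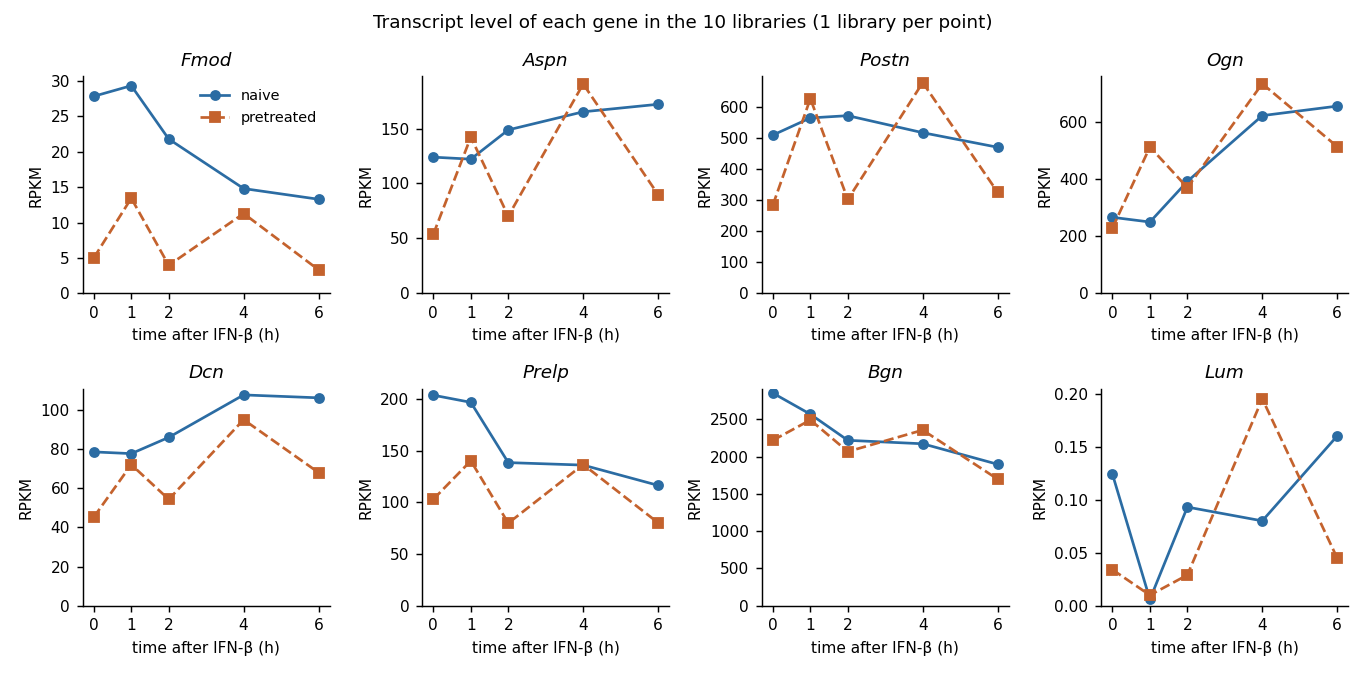
RPKM of each gene (vertical axis, from 0, own scale per gene) against time after IFN-β in hours, with naive libraries as circles on solid lines and pretreated libraries as squares on dashed lines, 1 library per point. The naive Ogn course climbs from 267 to 656 RPKM and that of Fmod falls from 27.9 to 13.3 RPKM, while the pretreated courses of Fmod, Aspn and Postn are high at 1 and 4 h.

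Ogn, which encodes a keratan sulfate proteoglycan also called mimecan, stood at 267, 250, 393, 623 and 656 RPKM at naive 0, 1, 2, 4 and 6 h. The 4 h and 6 h libraries were thus above the 3 earlier ones, 2.46-fold at 6 h over 0 h. The log2 slope was 0.28 per hour (SE 0.04, edgeR quasi-likelihood test adjusted p = 0.0264). This test called 13.7% of all genes tested, 7.45% rising and 6.20% falling, and of the 7 genes here Ogn rose and Fmod fell. DESeq2, which called 3854 of the 12168 genes, called 6 of the 7, all but Postn, with adjusted p = 0.00144 for Aspn, 0.00321 for Dcn, 0.0102 for Prelp and 0.0453 for Bgn.

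Fmod, whose product binds type I and type II collagen, stood at 27.9, 29.4, 21.8, 14.8 and 13.3 RPKM. From 1 h on each library was below the one before it. The log2 slope was -0.19 per hour (SE 0.03, edgeR adjusted p = 0.0274), and the naive libraries were not used to choose this gene. The call of Fmod was lost without the naive library of 0 h (edgeR adjusted p = 0.0865), 1 h (0.106), 4 h (0.0796) or 6 h (0.0814), and that of Ogn without 0 h (0.0893) or 1 h (0.106), with slopes of the same sign. With counts thinned to the smallest library, which removes the greater depth at 4 and 6 h, the edgeR adjusted p was 0.0257 for Ogn and 0.0294 for Fmod.

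The class I genes Aspn and Dcn had nearly the same slope. Aspn, which binds collagen and TGF-β, stood at 124, 122, 149, 165 and 172 RPKM, with a slope of 0.11 per hour (SE 0.03, edgeR adjusted p = 0.0549). Dcn stood at 78.6, 77.7, 86.0, 108 and 106 RPKM, also with 0.11 per hour (SE 0.03, edgeR adjusted p = 0.0520). For both, the libraries of 2, 4 and 6 h lay above those of 0 and 1 h. Set as the mean of 4 and 6 h against that of 0 and 1 h, the difference was 0.56 for Aspn (edgeR adjusted p = 0.0115) and 0.55 for Dcn (0.00943) on the log2 scale. This contrast leaves out the 2 h library and called 4446 of the 12168 genes, against 1662 by the slope. The slope without the 2 h library called 2780 genes, with edgeR adjusted p = 0.0434 for Aspn and 0.0495 for Dcn. Calls thus depend on the shape assumed for the course and on the 2 h library, and not only for these genes.

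Prelp, whose product links basement membranes to collagen, and Bgn went the other way. Prelp stood at 203, 197, 138, 136 and 116 RPKM and had a slope of -0.12 per hour (SE 0.03, edgeR adjusted p = 0.0668). Bgn, the third class I gene, stood at 2852, 2569, 2219, 2173 and 1898 RPKM with a slope of -0.07 (SE 0.02, edgeR adjusted p = 0.0747). Both were lower at each step of the course, as were 7.79% of all genes tested. Higher at each step were 0 of the 7 genes and 5.77% of all genes. As a difference of 4 and 6 h from 0 and 1 h, a contrast that called 4446 of the 12168 genes, Prelp was at -0.56 (edgeR adjusted p = 0.0179) and Bgn at -0.31 (0.0481). The slope without the 2 h library called 2780 genes, with edgeR adjusted p = 0.0317 for Prelp and 0.0402 for Bgn. Postn stood at 510, 565, 573, 518 and 471 RPKM, with a slope of -0.01 (SE 0.03, edgeR adjusted p = 0.805).

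Relative levels within the family shifted accordingly. Per RPKM of Fmod there were 9.58 RPKM of Ogn at naive 0 h and 49.3 at 6 h. Aspn was at 0.609 of the level of Prelp at 0 h and at 1.48 of it at 6 h.

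Within the chromosome 13 block, and within the chromosome 1 block, the naive slopes had the same sign. The flanking genes Nol8 and Btg2 shared the sign of their block without being called, so sign does not set the blocks apart. Bgn, Postn and their tested neighbours were not called by edgeR, so no contrast is read from their signs. In the block on chromosome 13 the naive slope was 0.50 per hour for Ecm2 (SE 0.07, edgeR adjusted p = 0.0236), 0.11 for Aspn, 0.22 for Omd (SE 0.03, edgeR adjusted p = 0.0239) and 0.28 for Ogn. Ecm2 went from 0.725 to 4.27 RPKM and Omd, which encodes another keratan sulfate proteoglycan, from 19.8 to 43.3 RPKM between naive 0 h and 6 h. The next gene beyond Ogn, Nol8, which acts in the nucleolus, had a slope of 0.07 (edgeR adjusted p = 0.179). On chromosome 1 the slopes were -0.16 for Optc (SE 0.06, edgeR adjusted p = 0.124), -0.12 for Prelp and -0.19 for Fmod. The antiproliferative gene Btg2, on the other side of Fmod, had -0.04 (edgeR adjusted p = 0.672). Beside Bgn, Haus7 had a slope of 0.01 (edgeR adjusted p = 0.757), and beside Postn, Supt20 had 0.05 (0.248). These genes were not tested as blocks.

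**Figure D2:**
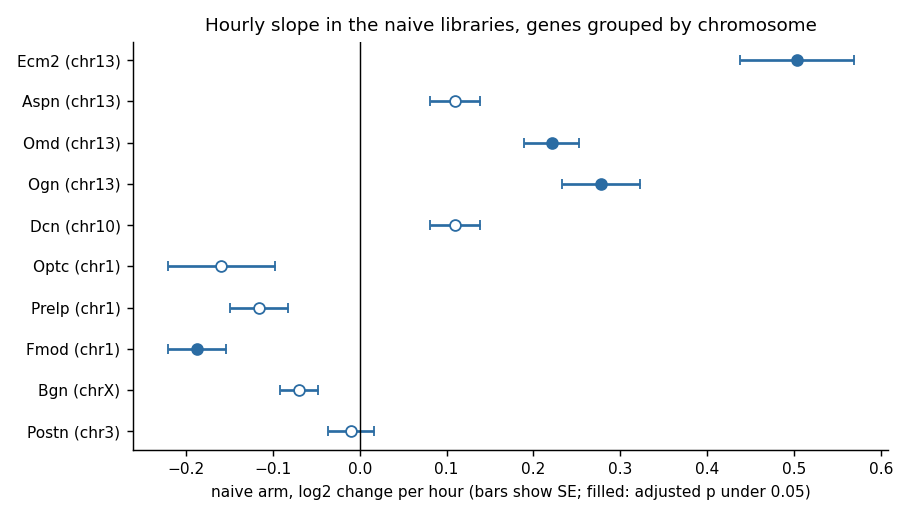
Hourly log2 slope in the 5 naive libraries (horizontal axis) for 7 of the genes and for Ecm2, Omd and Optc, grouped by chromosome; bars show the SE and filled points passed an adjusted p of 0.05. The 4 genes of the chromosome 13 block have positive slopes and the 3 of chromosome 1 negative ones.

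Before restimulation the pretreated library was the lower one for each of the 7 genes, and again at 2 h and 6 h. Lower at 0, 2 and 6 h were also 19.6% of all genes tested. Because Fmod, Aspn and Postn were chosen for pretreated levels that are low at 0, 2 and 6 h against 1 and 4 h, the counts between the arms partly restate that choice, and nothing is read from them for these 3 genes. At 1 h and 4 h the picture differed by gene. Aspn, Postn and Ogn were above naive at both times and below it at 0, 2 and 6 h, a pattern of 3.10% of all genes. Dcn and Fmod were lower in the pretreated library at all 5 times, as were 9.77% of all genes. For 0 of the 7 did all pretreated libraries lie below all naive ones, which held for 0.871% of all genes.

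For Fmod the values of the arms are given as a description, since its pretreated levels chose it. The pretreated libraries stood at 5.03, 13.5, 3.98, 11.3 and 3.34 RPKM, which is 18.1%, 45.8%, 18.2%, 76.2% and 25.1% of the naive library of the same time. Only the pretreated 1 h library (13.5 RPKM) overlapped the naive range, whose lowest value was 13.3 RPKM at 6 h. Fmod and Aspn were 2-fold or more lower at 0 h on the log2(RPKM + 1) scale, given as a description since their pretreated levels chose them, beside 0.838% of all genes. Both were so at 2 h (0.953% of all genes), Fmod alone at 1 h (0.814%) and 6 h (0.214%), and 0 of the 7 at 4 h (0.131%).

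Aspn in pretreated cells stood at 53.9, 142, 70.3, 191 and 89.9 RPKM. The 0, 2 and 6 h libraries held 43.5%, 47.3% and 52.2% of the naive level, and those of 1 and 4 h 116% and 115%. Postn stood at 285, 627, 303, 679 and 326 RPKM, or 55.9%, 111%, 52.9%, 131% and 69.2% of naive. For both genes the pretreated libraries thus lay on either side of the naive range, below it at 0, 2 and 6 h and above it at 4 h (Postn also at 1 h). No p is given for Fmod, Aspn and Postn between the arms, because their pretreated levels chose them.

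**Figure D3:**
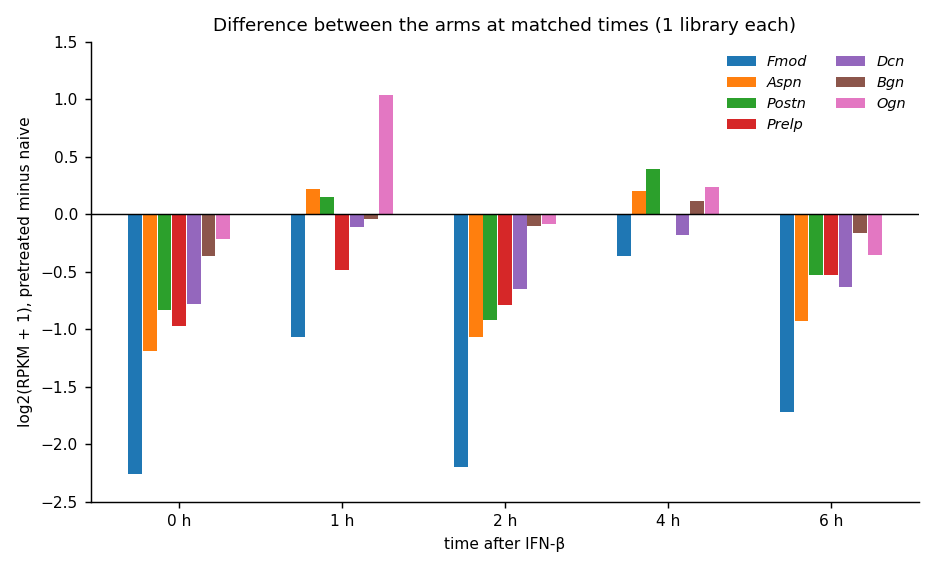
Difference in log2(RPKM + 1), pretreated minus naive, at each time (horizontal axis) for 7 genes, 1 library on each side. Bars of all 7 genes point down at 0, 2 and 6 h, with Fmod at -2.26, -2.20 and -1.72, and those of Aspn, Postn and Ogn point up at 1 and 4 h.

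Of the other 4 genes the arm test called 0. With time point as a term, the log2 difference between the arms was -0.58 for Prelp (SE 0.14, edgeR adjusted p = 0.0815) and -0.49 for Dcn (SE 0.12, adjusted p = 0.0818), both with an unadjusted p under 0.05, and DESeq2 called both (adjusted p = 0.000609 and 0.00172). Bgn had -0.13 (SE 0.08, edgeR adjusted p = 0.392), which became -0.067 without naive 0 h and -0.064 without pretreated 0 h, and Ogn 0.11 (SE 0.20, edgeR adjusted p = 0.789). Of all genes tested 1.27% passed this edgeR test, 0.386% higher and 0.879% lower in pretreated cells. An unadjusted edgeR p under 0.05 was found for 2660 of the 12168 genes, and DESeq2 called 1371. Without the 4 h library of the naive or the pretreated arm Prelp passed, at -0.72 in either case (edgeR adjusted p = 0.0380 and 0.0379). Leaving out either library of an hour is not a separate check. The term for time takes up the library left alone at that hour, so the arm estimates nearly coincide by design.

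These differences rested unevenly on the libraries that stand apart. Prelp in pretreated cells stood at 103, 140, 79.8, 136 and 80.2 RPKM, or between 50.6% and 100.4% of naive, and Dcn at 45.3, 72.1, 54.4, 95.1 and 68.1 RPKM, or between 57.7% and 92.8%. Bgn stood at 2219, 2492, 2068, 2357 and 1698 RPKM, between 77.8% and 108% of naive. Without the pretreated 1 and 4 h libraries the log2 difference was -0.79 for Prelp (edgeR adjusted p = 0.0823), -0.72 for Dcn (0.0650), -0.23 for Bgn (0.202) and -0.23 for Ogn (0.265), so that Ogn changed sign. That fit called 0 of these 4 genes and 0.115% of all genes.

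Among the 7 genes tested, Ogn had the largest excess over naive at a single time. The pretreated libraries stood at 229, 513, 371, 735 and 514 RPKM, and the 1 h library held 205% of naive. At 1 h Ogn was among the 1.55% of all genes whose pretreated level exceeded the naive one 2-fold or more. At the other times 0 of the 7 genes did so, and the shares of all genes at 0, 2, 4 and 6 h were 2.56%, 1.55%, 0.238% and 0.156%. At 6 h the pretreated level was 2.24-fold above its own 0 h, against 2.46-fold in naive cells. The difference between the slopes of the arms, added after the data were seen, was -0.09 per hour for Ogn (edgeR adjusted p = 0.998). That edgeR test called 0 genes, while 413 had an unadjusted p under 0.05, and no other tool was run on it.

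Within the pretreated arm, 6 of the 7 genes had both the 1 h and the 4 h library above the 0, 2 and 6 h libraries. This split chose Fmod, Aspn and Postn, so it is described without a test, and the 9.00% of all genes given above stands beside it. The mean of 1 and 4 h lay above that of 0, 2 and 6 h by 1.39 for Fmod, 1.22 for Aspn and 1.10 for Postn on the log2(RPKM + 1) scale. A mean difference of 2-fold or more upward was seen in 34 of the 12168 genes (0.279%), among which these 3 were counted, and one of 2-fold or more downward in 0.0657%. For Fmod the lower of the 1 and 4 h libraries was 2.24 times the highest of the other 3, for Postn 1.92 times and for Aspn 1.58 times.

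The remaining genes of the 7 were less far apart. The log2 difference was 0.80 for Ogn, 0.66 for Prelp, 0.58 for Dcn and 0.29 for Bgn. It became 0.49 for Ogn without pretreated 0 h, 0.38 for Dcn without pretreated 4 h and 0.18 for Bgn without pretreated 6 h. Dcn and Bgn parted the libraries narrowly, with the lower library of 1 and 4 h at 1.06 times the highest of the others in either case, and Prelp at 1.33 times. Ogn did not part them, because 513 RPKM at 1 h met 514 RPKM at 6 h. At the same hours in the naive arm the difference of the 7 genes lay between -0.05 and 0.14, and in each of the 7 the naive libraries overlapped.

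**Figure D4:**
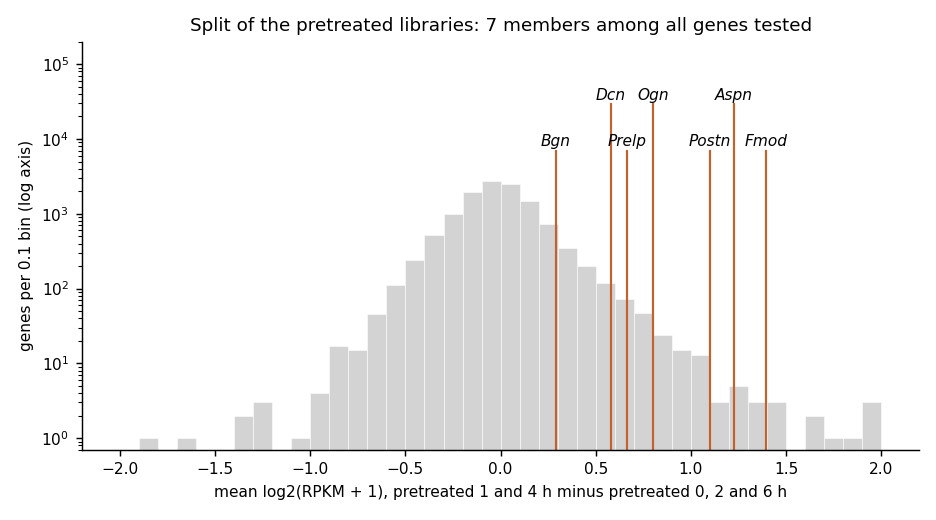
Number of genes (vertical log axis) by the difference of mean log2(RPKM + 1), pretreated 1 and 4 h minus pretreated 0, 2 and 6 h (horizontal axis, bins of 0.1), for the 12168 genes tested, with lines at the values of 7 genes. The lines run from 0.29 for Bgn to 1.39 for Fmod, to the right of most genes.

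Genes with the most similar course were sought by the root mean square difference of log2(RPKM + 1), centred on each gene's mean, over the 10 libraries. Nearest to Fmod were Mfap5 (0.25), Pcp4l1 (0.29), Igfbp2 (0.32), Mfap4 (0.34) and Mir675 (0.37), against a spread of 0.96 for Fmod itself. Mfap5 and Mfap4 encode proteins of elastic microfibrils, and Mir675 lies inside the H19 gene, whose reads it shares. Mfap5 stood at 27.0, 27.7, 27.2, 16.2 and 16.5 RPKM in naive and 6.79, 14.5, 6.85, 12.8 and 6.04 RPKM in pretreated libraries.

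Nearest to Aspn were Abi3bp (0.13), Inhbb (0.20), Gpm6b (0.22), AW551984 (0.22) and Tspan8 (0.22), with a spread of 0.56 for Aspn. Abi3bp, a matrix protein gene, stood at 50.7 and 25.2 RPKM at 0 h and at 85.0 and 93.4 RPKM at 4 h in the naive and the pretreated library. Nearest to Postn were Cthrc1 (0.12), Cpxm1 (0.12), Meg3 (0.15), Col11a1 (0.16) and Sema3d (0.17), with a spread of 0.43. Cthrc1 encodes a secreted protein with a collagen repeat, and Meg3 is an imprinted noncoding RNA. Among the 8 genes themselves, Dcn was the 7th and Postn the 12th nearest to Aspn, and Prelp the 44th nearest to Fmod. Other ranks among the 12168 genes depended on the gene they were taken from. Fmod ranked 10298th from Aspn and 11205th from Postn, while Aspn ranked 217th and Postn 118th from Fmod. The spread of Fmod is larger than that of Aspn or Postn, so these ranks do not compare the shape of the courses alone. Ogn ranked 506th from Aspn, 11207th from Fmod and 9920th from Postn.

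The table lists 3 transcripts of Postn that differ in 1 or more exons, and 2 each of Dcn and Aspn. The Postn rows stood at 502 to 510 RPKM at naive 0 h and at 671 to 679 RPKM at pretreated 4 h. Rows of 1 gene share most of their reads, so they do not measure isoforms apart.

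Of 11 further genes of the proteoglycan family, 7 were tested, and Kera, Epyc, Nyx and Chad stayed below 1 RPKM in every library. In naive cells Ecm2 and Omd rose, and 2 fell, Tsku by 0.15 per hour in log2 terms (SE 0.04, edgeR adjusted p = 0.0424) and Podnl1 by 0.22 (SE 0.05, edgeR adjusted p = 0.0458). Among all genes 7.45% rose and 6.20% fell. The median slope of the 7 was -0.16, against 0.00 over all genes. Omd followed Aspn in the pretreated arm, with 7.23, 25.1, 14.1, 34.8 and 20.2 RPKM. Pretreated 1 and 4 h lay above 0, 2 and 6 h by 1.15 for Omd and 0.84 for Optc on the log2(RPKM + 1) scale. Of the 7, 3 parted these libraries upward and 0 downward, beside 9.00% and 10.3% of all genes. In 1 of them the mean difference was 2-fold or more upward, beside 0.279% of all genes. The arm test called 0 of the 7, with 2 at an unadjusted p under 0.05 and 2 called by DESeq2, against 2660 and 1371 of the 12168 genes.

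Of 12 fibrillar and fibril-associated collagens, the partners of these proteoglycans, 3 fell in naive cells and 0 rose, with 7 at an unadjusted p under 0.05 and 7 called by DESeq2. Among all 12168 genes 4297 had an unadjusted edgeR p under 0.05 in naive cells, and DESeq2 called 3854. Col1a1, the main chain of type I collagen, went from 4973 to 3200 RPKM between 0 and 6 h (slope -0.09, SE 0.02, edgeR adjusted p = 0.0329), and Col5a1 from 425 to 217 RPKM (slope -0.16, SE 0.02, edgeR adjusted p = 0.0249). Of all genes 6.20% fell. All 12 parted the pretreated 1 and 4 h libraries upward, as did 9.00% of all genes, with a median log2 difference of 0.53 against -0.02 over all genes. Between the arms Col6a3 was lower in pretreated cells, by -0.79 (SE 0.10, edgeR adjusted p = 0.0225). Without the pretreated 1 and 4 h libraries, a fit with fewer residual degrees of freedom, it was at -0.90 and missed the threshold (edgeR adjusted p = 0.0622).

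Of 16 collagen processing and crosslinking genes, 2 rose in naive cells, the lysyl oxidase gene Loxl3 by 0.15 per hour (SE 0.03, edgeR adjusted p = 0.0290) and the prolyl hydroxylase gene P4ha1 by 0.12 (SE 0.03, edgeR adjusted p = 0.0411). With 2 of 16 called, the list was near the 13.7% called among all genes. The procollagen processing enhancer Pcolce2 was lower in pretreated cells, at -1.68 on that scale (SE 0.07, edgeR adjusted p = 0.000435). It kept its call without the pretreated 1 and 4 h libraries, at -1.72 (edgeR adjusted p = 0.0268). Of 8 periostin partners the fibronectin gene Fn1 fell in naive cells by 0.07 per hour (SE 0.01, edgeR adjusted p = 0.0348). Its difference between the arms was -0.26 (SE 0.05, edgeR adjusted p = 0.0481), lower after pretreatment. Without pretreated 1 and 4 h, a fit with fewer residual degrees of freedom, the call was lost at the same difference (-0.26, edgeR adjusted p = 0.0934). Tgfbi, the nearest relative of periostin, rose in naive cells by 0.13 per hour (SE 0.03, edgeR adjusted p = 0.0474).

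The enzymes that build the sugar chains were listed in 2 groups. Of 18 genes of the linker and of chondroitin and dermatan sulfate synthesis edgeR called 0 in either test, with 7 at an unadjusted p under 0.05 over the naive course and 3 between the arms, and DESeq2 called 6 and 1. Among all 12168 genes the unadjusted counts were 4297 and 2660, and DESeq2 called 3854 and 1371. Of 6 genes of keratan sulfate synthesis and tyrosine sulfation 2 fell in naive cells, beside 6.20% of all genes. Chst1 fell by 0.25 per hour (SE 0.04, edgeR adjusted p = 0.0260) and Chst2 by 0.18 (SE 0.04, edgeR adjusted p = 0.0337). Both encode sulfotransferases.

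In the TGF-β pathway 2 of 17 genes fell in naive cells, Ltbp2 by 0.17 per hour (SE 0.03, edgeR adjusted p = 0.0266) and Tgfb1 itself by 0.14 (SE 0.04, edgeR adjusted p = 0.0496). This too was near the 13.7% called among all genes, of which 6.20% fell. Between the arms the TGF-β target Ctgf was higher in pretreated cells by 0.65 (SE 0.10, edgeR adjusted p = 0.0408) and Ltbp4 lower by -1.36 (SE 0.15, edgeR adjusted p = 0.0171). Of 7 receptors of these proteoglycans 2 rose in naive cells, beside 7.45% of all genes. They were Tlr2, which biglycan can engage, at 0.36 per hour (SE 0.05, edgeR adjusted p = 0.0242) and Kdr, at under 1.2 RPKM throughout, at 0.53 (SE 0.10, edgeR adjusted p = 0.0301). Of 11 matrix proteases and inhibitors Mmp3 and Timp1 were lower in pretreated cells, by -1.11 (SE 0.12, edgeR adjusted p = 0.0171) and -0.62 (SE 0.10, edgeR adjusted p = 0.0448), beside 0.879% of all genes. Of 11 other proteoglycans 2 rose and 2 fell in naive cells, beside 7.45% and 6.20% of all genes. Agrin (Agrn, 0.33 per hour, SE 0.07) rose and perlecan (Hspg2, -0.14, SE 0.03) fell, and versican (Vcan) was lower in pretreated cells by -0.41 (SE 0.07, edgeR adjusted p = 0.0483). Without the pretreated 1 and 4 h libraries the arm calls of Ctgf (edgeR adjusted p = 0.0987), Mmp3 (0.0934), Timp1 (0.0925) and Vcan (0.122) were lost, and that of Ltbp4 was not (0.0413). That fit has fewer residual degrees of freedom and called 14 genes, against 154 in the main fit. Its differences were 0.65 for Ctgf, -1.15 for Mmp3, -0.54 for Timp1 and -0.44 for Vcan. The lost calls thus do not show that these differences rest on the 1 and 4 h libraries.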

How the data were processed

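The deposited table has a row per RefSeq transcript, with counts and RPKM of each library per the file headers. Bowtie, TopHat and Cufflinks 1.2.1, with no role, and the build mm10 come from the submitters' processing notes. The counts were deposited unnormalised, and the RPKM values were computed by the authors. Column length, the span of a transcript, was deposited and not used. The sources used here do not name the counting tool or say how reads with several alignments were treated.

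Of 30646 rows 15 named no gene (0.0157% to 0.0193% of the counts) and were left out. The row of highest mean RPKM was kept per symbol, and a gene was tested where 2 or more of 10 libraries reached 1 RPKM. Tests on the deposited counts used edgeR 4.0.16 (glmQLFit, glmQLFTest, TMM scaling) in R 4.3.3: arm with time point as a term (4 residual degrees of freedom), and the slope per hour in the 5 naive libraries (3). They were two-sided, adjusted by Benjamini-Hochberg over 12168 genes, with a threshold of 0.05. Groups hold 1 library each, so p-values measure the spread over time points or around a line, not between cultures. SE is the log2 value over the root of F. Alternatives used DESeq2 1.42.0 and limma 3.58.1. Single libraries were compared on log2(RPKM + 1), with a pseudocount of 1, which understates folds of low genes. Both tests were also run on simulated counts, whose outcome is not given here and is not used as support. Named genes were the 8 members, the 5 nearest courses to each of Fmod, Aspn and Postn, the neighbours in the table, and from each list the 2 genes of highest mean RPKM and up to 3 called genes per test. Members, lists and tests were chosen with earlier results of these data known.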

Additional observations from a re-analysis of the deposited data

How the results depend on the processing

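Over the naive course edgeR called 1662 genes (907 rising, 755 falling) and DESeq2 3854. The contrast of 4 and 6 h with 0 and 1 h, which leaves out 2 h, called 4446. With library totals in place of TMM scaling the split was 823 rising and 1200 falling, and with limma on log2(RPKM + 1) 951 and 1237. Without TMM the median of all genes over 6 h moved by -0.12 on the log2 scale, and the slopes of Ogn (0.26 per hour) and Fmod (-0.21) kept their sign and call. Leaving out 1 naive library gave between 0 genes (without 0 h or 1 h, with 3043 and 3329 at an unadjusted p under 0.05 in edgeR; no other tool was run there) and 2780 (without 2 h), with 289 without 4 h and 741 without 6 h. In a fit of all 10 libraries with a slope for each arm, Ogn had an edgeR adjusted p of 0.0378 and Fmod of 0.313. The Postn slope ranged from -0.036 to 0.022 per hour with 1 naive library left out, and turned positive without 6 h.

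Between the arms edgeR called 154 genes (47 higher, 107 lower), DESeq2 1371, a fit without the low-value filter 316, limma on log2(RPKM + 0.1) 87, a fit without the pretreated 1 and 4 h libraries 14 and a fit with no term for time 9. Limma on log2(RPKM + 1) gave 112 higher and 111 lower. Leaving out 1 library gave 2 to 175 genes: 2 without 1 h or 2 h of either arm, 7 without 0 h or 6 h, 159 without naive 4 h and 175 without pretreated 4 h. With the term for time, leaving out either library of an hour gives nearly the same arm fit, so these are not separate checks. The arm difference of Ogn ranged from -0.12 to 0.24 with 1 library left out, turned to -0.11 without naive 1 h and to -0.12 without pretreated 1 h, and was -0.23 without pretreated 1 and 4 h. The causes were not tested. Leaving out 1 pretreated library changed the number of genes that part the 1 and 4 h libraries from 2349 to between 3668 and 6150, since fewer libraries overlap less often. No paired analysis was possible because the labels carry no replicate numbers, apart from the matching of the arms by hour that the term for time makes in the arm test. Depth limits only Lum.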
